A study of Mus musculus with 15 samples.

Results

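A set of 5 genes of mitochondrial quality control and upkeep that are mutated in inherited ataxias, *Afg3l2*, *Spg7*, *Coq8a* (also written *Adck3*), *Polg* and *Twnk*, was followed in developing mouse Purkinje cells (PCs). They were chosen by symbol, as the 5 rows of the count files whose Ensembl IDs carry these names in GENCODE M21, out of 38561 gene rows in all. PCs are the large inhibitory neurons whose axons carry the output of the cerebellar cortex. They were cut by laser from cerebella of C56/BL6 mice (spelled as in the sample labels; the study's methods give male C57/BL6 animals) on the day of birth (P0) and at P4, P8, P14 and P21, in 3 libraries per age and 15 in all. The mice carried no stated mutation and received no stated treatment, and age is the labelled difference between the groups. Capture differed too, with 1000 PC soma per sample at P4 to P21 and clusters of PCs at P0, and whether an age also shared a capture or library batch is not stated.

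Mitochondria keep their inner membrane in order with proteases anchored in it. AFG3L2 and paraplegin, the product of *Spg7*, are subunits of one of these, the m-AAA protease, an ATP-driven complex facing the matrix that degrades damaged membrane proteins and matures others. COQ8A is an atypical kinase-like protein needed for the synthesis of coenzyme Q, the lipid that carries electrons in the respiratory chain. POLG is the catalytic subunit of the DNA polymerase that copies mitochondrial DNA, and Twinkle, the product of *Twnk*, is the helicase that opens the duplex ahead of it. In humans, mutations of *AFG3L2* cause spinocerebellar ataxia or a recessive spastic ataxia, those of *SPG7* spastic paraplegia with ataxia, those of *COQ8A* a recessive ataxia with coenzyme Q deficiency, and those of *POLG* and *TWNK* sensory ataxic and infantile-onset forms.

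In the main fit *Coq8a* was the only one of the 5 that passed the test of a course with age, and it rose. Of all genes tested, 12.1% rose and 14.1% fell with age in that fit, so 1 of 5 is no result about the set. The mean level of *Coq8a* was 0.709 RPKM at P0 and 10.3 RPKM at P21, where RPKM is a count scaled by the exon length of the gene and by the total counts of the library. *Afg3l2*, *Spg7* and *Polg* had positive slopes that did not pass the test in the main fit. *Afg3l2* or *Spg7* passed it in some alternative fits, given at the end. *Twnk*, the least abundant at P21, showed no course that stood out from the spread between libraries. All 5 genes were measured at all ages, from P0 on, with 2 libraries as exceptions in which *Coq8a* or *Twnk* had no count.

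The genes lie on 5 chromosomes (GRCm38). *Coq8a* (ENSMUSG00000026489) spans chr1:180165238-180199602 on the minus strand, *Polg* (ENSMUSG00000039176) chr7:79446231-79466362 on the minus strand, and *Spg7* (ENSMUSG00000000738) chr8:123062942-123097760 on the plus strand. *Afg3l2* (ENSMUSG00000024527) spans chr18:67404764-67449172 on the minus strand and *Twnk* (ENSMUSG00000025209) chr19:45005663-45012762 on the plus strand. Reads were counted over exons, and the libraries do not mark strand, so reads from overlapping exons of opposite genes cannot be told apart. Such overlap covers 366 of the 5293 exon bases of *Coq8a* (with *Cdc42bpa*), 921 of 10742 in *Polg* (with *Fanci*) and 507 of 4013 in *Twnk* (with *Mrpl43*). Reads that could not be assigned to 1 gene were tallied apart as ambiguous, 63180 to 136506 per library, and are in no gene's count.

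Total counts on genes ranged from 3409371 to 7814951 per library, and 13761 to 15564 genes had a count. Levels of the 6 PC markers were summed as RPKM and lay between 2741 and 3560 at P0 and between 12935 and 17742 at P21, and all 6 rose with age. The 8 Bergmann glia and astrocyte markers summed to 2712 ± 559 RPKM at P0, 4580 ± 365 at P8 and 590 ± 134 at P21 (SD, n = 3). Of the 8, 3 rose (*Slc1a3*, *Slc1a2* and *Hopx*) while 2 fell with age (*Fabp7* and *Aldh1l1*). *Fabp7* weighed most in the sum, with time point means between 130 and 3871 RPKM, against 188 to 386 RPKM for *Slc1a3*. The sum is thus no measure of a shared course of the 8. The markers of dividing cells all fell, from a sum of 65.4 to 0.219 RPKM. Oligodendrocyte markers went from 4.64 to 91.8 RPKM, vascular markers from 31.7 to 5.08 RPKM, and granule neuron markers ranged from 88.5 to 220 RPKM with *Atoh1* at 0 in all libraries. Interneuron and microglia markers reached at most 5.52 and 6.25 RPKM in the mean of a time point. The part of these shifts in the courses below was not tested, and in captured tissue fewer cells of a type and less RNA per cell cannot be told apart. P21 replicate 3 correlated more closely with the P14 libraries (mean r = 0.903) than with its own time point (0.895), so *Coq8a* is also given without it.

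RefSeq promoter windows, 250 bases before to 50 after an annotated start, were at hand for 4 of the 5 genes (GRCm38.p6). They are shown because they place the gene that rose beside others that did not pass the test, with every match to a searched motif in capitals. Both strands were searched for the NRF1 core (GCGC, any 2 bases, GCGC), the ETS core CCGGAAGT, the ERR element TCAAGGTCA, the E-box CACGTG and the CCAAT box. NRF1, GABPA (an ETS factor) and the ERR receptors are known regulators of nuclear genes for mitochondrial proteins. The window of the first *Coq8a* start is chr1:180195971-180196270 (minus strand), the *Spg7* window chr8:123065258-123065557 (plus strand) and the *Polg* window chr7:79466224-79466523 (minus strand).
Coq8a: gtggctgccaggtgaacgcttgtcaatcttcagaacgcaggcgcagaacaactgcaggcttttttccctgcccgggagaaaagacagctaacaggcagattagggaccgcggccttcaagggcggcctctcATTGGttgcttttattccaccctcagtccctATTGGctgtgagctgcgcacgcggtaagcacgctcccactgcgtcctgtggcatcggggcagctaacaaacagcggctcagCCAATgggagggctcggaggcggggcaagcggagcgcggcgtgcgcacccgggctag
Spg7: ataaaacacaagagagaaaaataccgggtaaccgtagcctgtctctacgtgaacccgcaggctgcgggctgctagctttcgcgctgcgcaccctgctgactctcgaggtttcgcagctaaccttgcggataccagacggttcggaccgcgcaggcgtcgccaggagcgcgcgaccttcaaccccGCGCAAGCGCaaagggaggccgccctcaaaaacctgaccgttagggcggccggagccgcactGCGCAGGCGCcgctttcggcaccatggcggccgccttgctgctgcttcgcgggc
Polg: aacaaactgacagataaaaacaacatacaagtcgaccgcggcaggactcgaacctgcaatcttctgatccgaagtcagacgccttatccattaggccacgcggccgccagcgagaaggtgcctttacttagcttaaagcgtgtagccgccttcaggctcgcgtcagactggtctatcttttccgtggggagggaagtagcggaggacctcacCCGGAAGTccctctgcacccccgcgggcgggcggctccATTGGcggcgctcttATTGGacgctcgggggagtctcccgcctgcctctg
The window of the first *Coq8a* start held 3 CCAAT boxes, with first bases 119, 88 and 7 bases before the start. The first and second of these read on the opposite strand. *Coq8a* has a second annotated start, with the window chr1:180193436-180193735 (minus strand), which is not printed and held no match. Which of its starts is used in PCs was not tested. The CCAAT box is found in 37.4% of all 32851 promoters in the table. The *Spg7* window held the NRF1 core at 66 and at 4 bases before the start, and 6.23% of all promoters hold that core. The *Polg* window held an ETS core 38 bases before the start (3.89% of all promoters) and 2 CCAAT boxes on the opposite strand after it. *Twnk* has a first start with 2 CCAAT boxes and a second with 1 ETS core on the opposite strand. Neither the ERR element (0.423% of all promoters) nor CACGTG (7.15%) was matched in these windows. These matches are letters in a window and not measured binding.

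*Coq8a*, the coenzyme Q gene, was low in the 2 youngest groups. At P0 it had 0, 23 and 27 counts in replicates 1 to 3, or 0, 0.968 and 1.16 RPKM, where the 3 counts that a count of 0 allows in replicate 1 correspond to 0.121 RPKM. At P4 it had 17, 79 and 1 counts, or 0.844, 1.91 and 0.0351 RPKM. The libraries of each of these ages thus ranged from near 0 to a low level. At P8 the counts were 237, 108 and 173, equal to 9.50, 3.99 and 6.11 RPKM. At P14 the levels were 6.76, 4.38 and 10.1 RPKM, and at P21 they were 6.93, 10.1 and 13.97 RPKM. Every library from P8 on lay above every P0 and P4 library, and the 3 older groups overlapped each other. How many of all genes split in this way from P8 on, or between P4 and P8, was not counted.

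**Figure D1:**
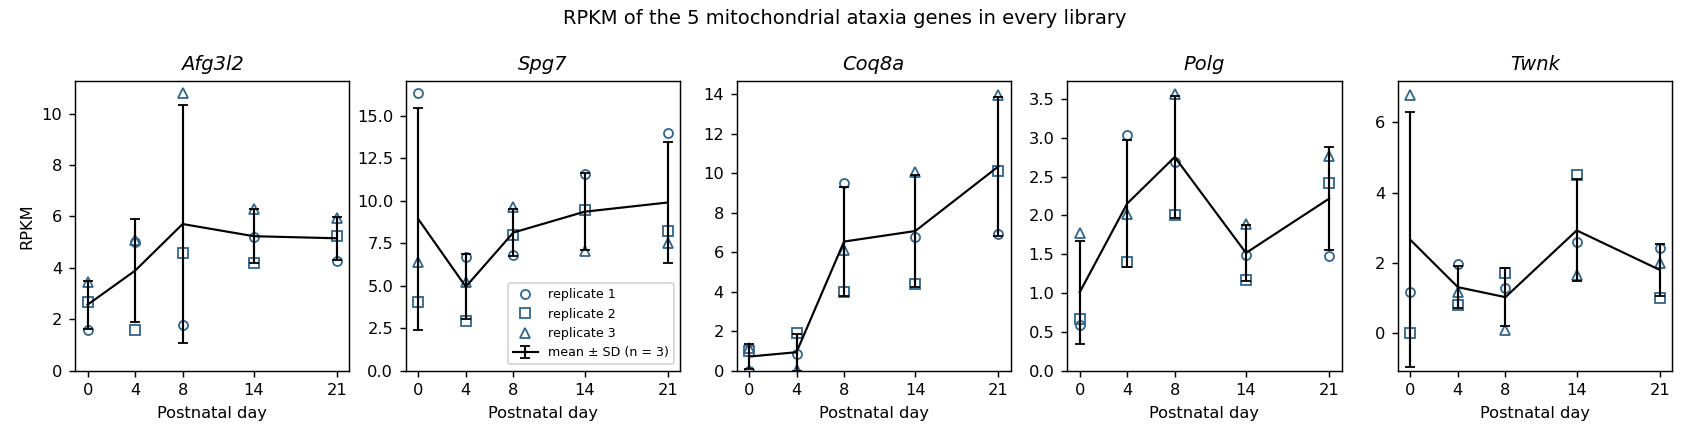
RPKM (y axes, linear and scaled per gene) of the 5 genes against postnatal day; open symbols are libraries by replicate number and the line joins the means with SD (n = 3). *Coq8a* lies at or below 1.91 RPKM in all P0 and P4 libraries and at 3.99 RPKM or more in all later ones, while the other 4 genes have no such split between the P0 and P4 libraries and the P14 and P21 libraries.

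In order of mean level, *Coq8a* stood at 10.3 ± 3.53 RPKM at P21, 7.07 ± 2.86 at P14, 6.54 ± 2.78 at P8, 0.930 ± 0.940 at P4 and 0.709 ± 0.621 at P0 (SD, n = 3). Among neighbours in this order, P8 and P4 alone did not overlap and differed by more than both SDs. The slope with postnatal day was 0.20 log2 units per day (SE 0.052, adjusted p = 0.00653, edgeR's quasi-likelihood test). At that threshold 12.1% of the 14293 genes tested rose and 14.1% fell, so 1 riser among 5 genes is no result about the set. P21 against P0, the log2 difference was 4.22 (95% interval 1.92 to 6.52), or 18.7-fold, with an adjusted p of 0.00962 in edgeR, where 12.2% of genes were called higher. The test of any difference among time points called *Coq8a* alone of the 5 (edgeR adjusted p = 0.0227), against 19.3% of all genes. That call was lost without P21 replicate 2 (adjusted p = 0.05003) and without P21 replicate 3 (0.0606), in the same edgeR test.

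The other tests of *Coq8a* kept their calls without those libraries. Without P21 replicate 3, the slope was 0.21 per day (edgeR adjusted p = 0.0188) and the P21 to P0 difference 3.97 (0.0298). Without P0 replicate 1 and P4 replicate 3 together, the libraries with 0 or 1 count, the slope was 0.16 per day (edgeR adjusted p = 0.00153), an alternative chosen after the data were seen. Against P4 in place of P0, since P4 was captured as single soma, P21 was higher by 3.67 log2 units (edgeR adjusted p = 0.0237), likewise chosen after seeing the data. The step from P4 to P8, 2.75 log2 units (SE 1.01), had an unadjusted p of 0.0153 and did not pass adjustment (edgeR adjusted p = 0.270). Read on effective library sizes, the lowest P14 or P21 library of *Coq8a* (24.3 CPM, which are counts brought to one common library size) lay above the highest P0 or P4 library (10.2 CPM). That separation held upwards for 8.24% of all genes tested and downwards for 7.14%, and for none of the other 4 members.

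*Afg3l2*, which encodes an m-AAA subunit, was present at every age. At P0 it had 1.60, 2.66 and 3.45 RPKM in replicates 1 to 3, and at P4 it had 5.003, 1.59 and 5.08 RPKM. At P8 the libraries spread most widely, with 1.76, 4.58 and 10.8 RPKM. At P14 they lay closer together, at 5.21, 4.196 and 6.29 RPKM, and at P21 at 4.28, 5.25 and 5.93 RPKM. All P14 and P21 libraries lay above all P0 libraries, a split whose share among all genes was not counted, and P4 and P8 overlapped both. The order of means was P8 (5.71 ± 4.61 RPKM), P14 (5.23 ± 1.05), P21 (5.15 ± 0.83), P4 (3.89 ± 1.99) and P0 (2.57 ± 0.93, SD, n = 3), and no neighbours in it differed beyond their spread. On effective library sizes the first 3 turned around, with P21 at 58.2 CPM, P14 at 55.3 and P8 at 54.5. The slope was 0.058 log2 units per day (SE 0.025, edgeR adjusted p = 0.0939). P21 against P0, the difference was 1.36 log2 units (95% interval 0.18 to 2.54, edgeR adjusted p = 0.0912). The slope passed the threshold without P8 replicate 3, the highest library (0.062 per day, edgeR adjusted p = 0.0303).

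*Spg7*, which encodes paraplegin, was measured at every age. At P0 the levels were 16.3, 4.04 and 6.38 RPKM, and at P4 they were 6.69, 2.92 and 5.22 RPKM. At P8 they were 6.81, 7.97 and 9.61 RPKM. P0 replicate 1 stood apart from the other P0 libraries, and every P8 library lay above every P4 library. By RPKM it was the highest of all 15, but on effective library sizes P21 replicate 1 was higher (71.8 against 66.5 CPM). At P14 the levels were 11.6, 9.45 and 7.03 RPKM and at P21 they were 13.96, 8.21 and 7.52 RPKM. The means ran from P21 (9.89 ± 3.54 RPKM) through P14 (9.35 ± 2.27), P0 (8.92 ± 6.53) and P8 (8.13 ± 1.41) to P4 (4.94 ± 1.90), and of these neighbours only P8 and P4 differed beyond their spread. The step from P4 to P8, 0.75 log2 units, did not pass (edgeR adjusted p = 0.637). The share of all genes with such a split between P4 and P8 was not counted. The slope was 0.038 log2 units per day (SE 0.021, edgeR adjusted p = 0.190), and the P21 to P0 difference was 0.50 (95% interval -0.54 to 1.53, edgeR adjusted p = 0.517). One library decided the slope: without P0 replicate 1 it was 0.068 per day and passed (edgeR adjusted p = 0.011). The P21 to P0 difference was 1.25 without that library (edgeR adjusted p = 0.0777) and 0.12 without P0 replicate 2 (0.904).

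*Polg*, the mitochondrial DNA polymerase, was lowest at P0, with 0.596, 0.664 and 1.77 RPKM. At P4 it had 3.03, 1.41 and 2.02 RPKM and at P8 2.69, 2.003 and 3.57 RPKM. Both of these groups lay above the pair of lower P0 libraries, and P0 replicate 3 overlapped P4. At P14 the levels were 1.49, 1.17 and 1.89 RPKM, and at P21 they were 1.47, 2.41 and 2.76 RPKM. The P14 libraries lay below every P8 library by RPKM, but P14 replicate 3 (21.7 CPM) lay above P8 replicate 2 (20.98 CPM) on effective library sizes. The means ran from P8 (2.75 ± 0.79 RPKM) through P21 (2.22 ± 0.67), P4 (2.15 ± 0.82) and P14 (1.52 ± 0.36) to P0 (1.01 ± 0.66), with no neighbours apart beyond their spread. The slope was 0.041 log2 units per day (SE 0.027, edgeR adjusted p = 0.291). The step from P0 to P4 was 1.17 log2 units (edgeR adjusted p = 0.332) and that from P8 to P14 was -0.71 (edgeR adjusted p = 0.678). P21 against P0, the difference was 1.49 (95% interval 0.32 to 2.66, edgeR adjusted p = 0.0632). Without P0 replicate 3 it was 2.13 and passed (edgeR adjusted p = 0.0176).

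*Twnk*, the helicase gene, had few counts and scattered widely. At P0 it had 22, 0 and 120 counts, or 1.17, 0 and 6.78 RPKM, so that the lowest and the highest of the 15 libraries were both at P0. At P4 the levels were 1.96, 0.797 and 1.16 RPKM and at P8, where replicate 3 had 2 counts, 1.27, 1.71 and 0.0932 RPKM. At P14 they were 2.61, 4.50 and 1.66 RPKM, and at P21 2.41, 0.987 and 1.99 RPKM. On this scale each age overlapped the others, while on effective library sizes every P14 library (7.10 CPM or more) lay above every P8 library (6.68 CPM or less). The share of all genes with that split was not counted. The step from P8 to P14, 1.65 log2 units, did not pass (edgeR adjusted p = 0.699). The means ran from P14 (2.92 ± 1.45 RPKM) through P0 (2.65 ± 3.63), P21 (1.80 ± 0.73) and P4 (1.31 ± 0.60) to P8 (1.02 ± 0.83), with no neighbours apart beyond their spread. The slope was 0.019 log2 units per day (SE 0.052, edgeR adjusted p = 0.832), and the P21 to P0 difference was -0.21 with a 95% interval of -2.94 to 2.52 (edgeR adjusted p = 0.933). The sign of the difference turned without P0 replicate 3 (1.91, edgeR adjusted p = 0.382), and with single libraries left out the slope ranged from 0.0021 to 0.093 per day.

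**Figure D2:**
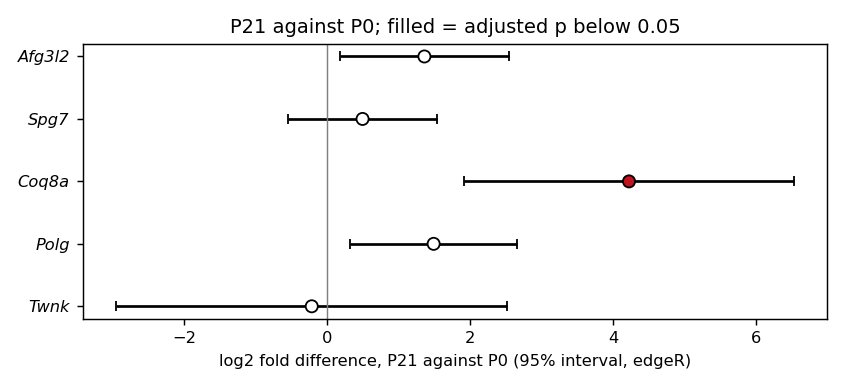
Log2 difference of P21 against P0 for the 5 genes (x axis, edgeR, 3 libraries per age) with 95% intervals, filled where the adjusted p is below 0.05. *Coq8a* alone is filled, at 4.22, the intervals of *Afg3l2*, *Polg* and *Coq8a* lie above 0, and that of *Twnk* runs from -2.94 to 2.52.

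Of the 20 steps between neighbouring ages in the 5 genes, 0 passed the adjusted threshold in edgeR, and 0 did so in DESeq2 or limma-voom. At an unadjusted p under 0.05 the edgeR count was 2, the *Coq8a* step from P4 to P8 and the *Polg* step from P0 to P4. Across all genes, calls at single steps were rare too, at 1.74% higher and 0.231% lower for P0 to P4, 0.882% and 0.252% for P4 to P8, 1.29% and 1.38% for P8 to P14, and 0.063% and 0.266% for P14 to P21. All 5 slopes with age were positive, and only that of *Coq8a* passed the test. Their median was 0.041 log2 units per day against -0.0077 over all genes tested. The share of positive slopes among all genes was not counted, so the shared sign is no result about the set. For P21 against P0 the median of the 5 was 1.36 and that of all genes -0.11. That background depended on the scaling. Over all genes 1729 rose and 2021 fell with age by TMM scaling, against 1230 and 2874 with library totals alone. P21 against P0, the calls were 1739 higher and 1522 lower by TMM, and 1312 and 2292 by library totals, where the median of all genes moved to -0.46. *Coq8a* rose under both scalings (3.86 log2 units by library totals, edgeR adjusted p = 0.0152).

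The spread between libraries of one age differed among the genes. On the log2 CPM scale the SD within time points was 0.537 for *Polg*, 0.595 for *Spg7*, 0.764 for *Afg3l2*, 1.46 for *Coq8a* and 1.64 for *Twnk*. Among 1000 genes of like mean level, 13.6% had a smaller SD than *Polg*, 50.1% than *Spg7* and 71.9% than *Twnk*. *Afg3l2* and *Coq8a* were on the more variable side, with 81.8% and 88.1% of like genes less variable. Per length, the order of levels at P21 was *Coq8a* (10.3 RPKM), *Spg7* (9.89), *Afg3l2* (5.15), *Polg* (2.22) and *Twnk* (1.80). With the length of the longest principal transcript in place of all exons, an alternative chosen after the data were seen, *Afg3l2* came first at 16.4, followed by *Spg7* at 15.4, *Coq8a* at 13.6, *Polg* at 3.04 and *Twnk* at 2.07. The place of the first 3 thus depended on the length used, and *Polg* and *Twnk* came last by both.

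The m-AAA protease of mice can also be built with AFG3L1, a close relative of AFG3L2 whose human counterpart is a pseudogene. *Afg3l1* averaged 14.2 ± 7.91 RPKM at P0 and 5.43 ± 3.01 RPKM at P21 (SD, n = 3), and its slope, -0.042 in log2 units per day, did not pass the test (edgeR adjusted p = 0.163). The ratio of its counts to those of *Afg3l2* in the same library averaged 1.32 ± 1.28 on the log2 scale at P0, 0.28 ± 0.84 at P4 and 0.27 ± 1.29 at P8. It averaged -0.54 ± 0.78 at P14 and -1.17 ± 0.82 at P21, and it was positive in the 3 P0 libraries and negative in the 3 P21 libraries. The ratio fell with postnatal day across the 15 libraries (Pearson r = -0.687, permutation p = 0.00402, adjusted over 5 ratios p = 0.0201). Spearman's rho was -0.676 (permutation p = 0.00763, adjusted p = 0.0382), and r without P21 replicates 1 and 2 was -0.620. The adjusted permutation p was 0.0697 without P0 replicate 1 (r = -0.645), 0.097 without P21 replicate 1 (r = -0.612) and 0.208 without the 3 P0 libraries (r = -0.598).

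**Figure D3:**
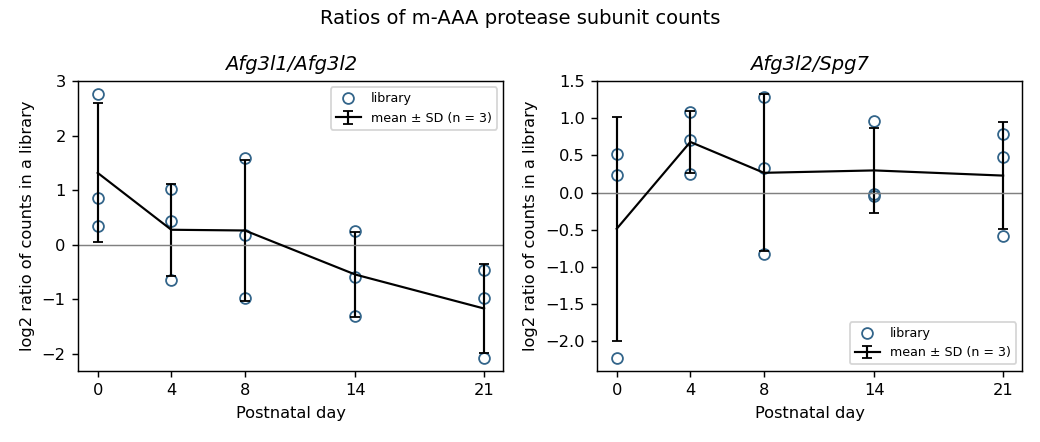
Log2 ratios of counts within a library (y axes) against postnatal day for *Afg3l1* over *Afg3l2* (left) and *Afg3l2* over *Spg7* (right); circles are libraries and the line joins means with SD (n = 3). The left ratio goes from a mean of 1.32 at P0 to -1.17 at P21, and the right one from -0.49 at P0 to 0.23 at P21.

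The other 4 ratios did not pass. *Afg3l2* over *Spg7*, the subunits of the hetero-oligomeric m-AAA protease, averaged -0.49 ± 1.51 at P0, 0.68 ± 0.42 at P4 and 0.23 ± 0.71 at P21, with r = 0.143 against day (permutation p = 0.627, adjusted p = 0.627, rho = 0.0436). *Coq8a* over its paralog *Coq8b* had r = 0.422 (permutation p = 0.119, adjusted p = 0.297, rho = 0.491). It passed without P4 replicate 2, a library with no *Coq8b* count (r = 0.618, adjusted permutation p = 0.0349). *Polg* over *Polg2*, which encodes the accessory subunit of the polymerase, had r = -0.157 and *Polg* over *Twnk* r = -0.171 (both adjusted permutation p = 0.627). *Coq8b* itself averaged 2.91 ± 1.35 RPKM at P0 and 1.90 ± 1.13 RPKM at P21, and its slope per day was 0.025 in log2 units (edgeR adjusted p = 0.768).

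Around these genes, most of the mitochondrial machinery did not pass the test of a trend with age. Of 101 tested genes in 6 fixed lists of mitochondrial genes, 10 rose (9.9%) and 5 fell (4.95%), against 12.1% and 14.1% of all genes. By library totals the counts were 5 and 16. Of 23 m-AAA partners and genes of inner membrane quality control, 2 rose and 2 fell, with a median slope of -0.015 log2 units per day. *Ghitm*, an inner membrane protein of the cristae, rose by 0.10 per day, and *Dnaja3*, a mitochondrial Hsp40 chaperone, by 0.080. *Micu2*, a gatekeeper of the calcium uniporter, fell by 0.14 per day, and *Htra2*, a serine protease between the membranes, by 0.089. The prohibitins that surround the m-AAA protease had slopes of -0.019 (*Phb*) and -0.025 (*Phb2*), and the i-AAA protease gene *Yme1l1* had -0.017 (edgeR adjusted p = 0.431, 0.195 and 0.390).

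Of 15 genes of coenzyme Q synthesis beside *Coq8a*, 1 rose and 2 fell, against 12.1% and 14.1% of all genes. *Coq10a*, which binds coenzyme Q for its use in the chain, had 0.078 log2 units per day as its slope (edgeR adjusted p = 0.0138). *Pdss1*, which helps make the isoprenoid tail, had -0.11 (edgeR adjusted p = 0.0324) and *Coq6*, a hydroxylase of the ring, -0.062 (0.0471). Each of these calls was lost with some single library left out, with edgeR adjusted p up to 0.0628 for *Coq10a* (without P21 replicate 1), 0.0913 for *Pdss1* (without P21 replicate 1) and 0.116 for *Coq6* (without P0 replicate 1). The list then held 0 to 1 risers and 0 to 3 fallers. The median slope of the list was 0.0046. Of 23 tested genes of mitochondrial DNA replication, transcription and nucleotide supply, 2 rose and 0 fell. Both, *Suclg1* (0.050 per day) and *Sucla2* (0.047 per day), encode subunits of succinyl-CoA ligase. *Polg2*, *Ssbp1* (the single-strand binding protein) and *Tfam* (which packs mitochondrial DNA) had slopes of 0.058, -0.023 and 0.011, with edgeR adjusted p of 0.517, 0.177 and 0.788.

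**Figure D4:**
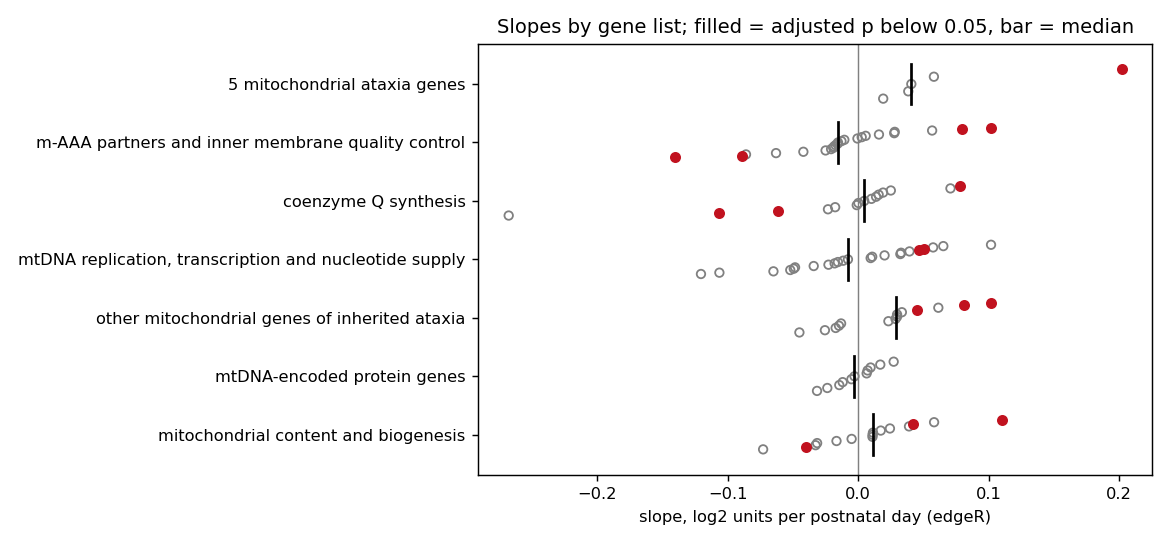
Slope with postnatal day in log2 units per day (x axis, edgeR, 15 libraries) for the genes of each list; circles are genes, filled where the adjusted p is below 0.05, and bars are medians. *Coq8a* at 0.20 has the highest slope shown, and the other lists hold between 0 and 3 filled genes on either side of 0.

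Of 14 other mitochondrial genes of inherited ataxia, 3 rose and 0 fell, with a median slope of 0.029 log2 units per day. Of all genes, 12.1% rose and 14.1% fell. With single libraries left out this list held 2 to 3 risers, and with so few genes the count is no result about the list. *Slc25a46*, an outer membrane protein of mitochondrial dynamics, went from 4.73 ± 2.45 RPKM at P0 to 15.04 ± 1.72 RPKM at P21 (slope 0.10, edgeR adjusted p = 0.000414). *Mfn2*, the outer membrane fusion GTPase, had 18.5 ± 7.18 and 27.4 ± 8.81 RPKM (slope 0.045, edgeR adjusted p = 0.0275). That call was lost in 5 of the 15 fits that left out 1 library (P0 replicate 1 or 3, P4 replicate 1, P21 replicate 2 or 3, edgeR adjusted p up to 0.0904) and by library totals (0.181). Of 15 genes of mitochondrial content and biogenesis, *Esrra*, an orphan nuclear receptor of oxidative metabolism, had a slope of 0.11 and the outer membrane channel gene *Vdac1* 0.042, and both rose. The import receptor gene *Tomm70a* fell by 0.040 per day. The 11 tested protein genes of the mitochondrial genome itself held 0 calls for a trend in either direction in edgeR with TMM scaling, against 1 in DESeq2, 1 in limma-voom and 2 in edgeR by library totals. Their median step was 0.52 log2 units from P0 to P4, -0.65 from P8 to P14 and 0.44 from P14 to P21, with the same sign in all 11 at each of these steps under both scalings. The 11 were read in the same 3 libraries per age, so the shared sign is not 11 independent observations. Single libraries moved these steps. P4 replicate 2 had the highest share of counts on genes of the mitochondrial genome (7.04%). Without it the median step from P0 to P4 was 0.20, with 9 of 11 positive. Without P21 replicate 2, 10 of 11 were positive from P14 to P21. With all libraries, the edgeR calls at these steps were 1, *mt-Co1* from P0 to P4, which was lost with DESeq2 size factors and by library totals. From P8 to P14 the calls were 0 in edgeR with TMM, 3 in DESeq2 and 3 in edgeR by library totals. At that step DESeq2 called 837 of all 14293 genes, and edgeR by library totals 470. Of the 11, *mt-Co2*, *mt-Co3* and *mt-Atp6* had means of at most 9.36 CPM at any age.

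The genes most like each member were found by Pearson's r of log2 CPM over the 15 libraries, among 9306 protein-coding genes with a mean of at least 10 CPM, as a description. For *Coq8a* they were *Kif17* (r = 0.957), a dendritic kinesin motor, *Naaa* (0.939), a lysosomal hydrolase, and *Map3k5* (0.936), a stress-activated kinase. For *Afg3l2* they were *Pef1* (0.895), *D10Jhu81e* (0.876) and *Relt* (0.856), and for *Spg7* they were *Ago3* (0.887), *Rps6kc1* (0.856) and *Usp46* (0.836). *Polg* came nearest to *Klhl1* (0.867), *Rap1gap* (0.857) and *Itgav* (0.841), and *Twnk* to *Zc3h15* (0.833), *Akr1b10* (0.829) and *Bcas3* (0.825). By r, the nearest genes of *Coq8a* were thus closer to it than those of the other 4 members were to theirs. But r depends on the range of a gene, and *Coq8a* ran from -1.39 to 6.38 log2 CPM, with 2 libraries at 0 or 1 count. Its r without those libraries was not computed. All these r values share libraries, depth and age.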

How the data were processed

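The authors extracted RNA from laser-captured PCs, made SMARTer Ultra Low libraries, trimmed reads (cutadapt 1.2.1), aligned them to GRCm38/mm10 with GSNAP and counted unique reads per Ensembl gene with HTSeq 0.5.3p9 in intersection-strict mode. The deposited values are whole-number counts, 1 library per sample, without normalization, and the annotation release is not given in the sources used here. The tallies outside genes (18.2% to 31.0% per library) were left out. Their share differed with age, at 25.3% to 31.0% at P0, 21.5% to 24.7% at P4 and P8, and 18.2% to 20.7% at P14 and P21. Its part in the differences between ages was not tested. Groups came from the sample labels.

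Trends with postnatal day, any difference among ages, P21 against P0 and the 4 steps were tested by edgeR 4.0.16 (R 4.3.3; quasi-likelihood F test, TMM, filterByExpr by time point, 14293 genes, Benjamini-Hochberg over all of them, threshold 0.05). Alternatives used DESeq2 1.42.0, limma 3.58.1, other scalings, no filter, log2 of day + 1, no P0, a replicate block and each library left out. RPKM used summed exon lengths of GENCODE M21 (36639 of 38561 IDs matched) and total counts on genes, and levels are limited below by 3 counts per library, which covers counting error only. Count ratios had 0.5 added per gene and were tested by 100000 two-sided permutations (Python 3.11.15, scipy 1.17.1). Replicates differed by more than sampling noise (chi-square per degree of freedom 19.3 to 59.5), and the study's methods call them biological replicates without stating how many mice made up each. The scripts were tested on simulated data.

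Named genes are the 5 members, 8 partner genes, up to 4 genes rising and 4 falling with the largest slope among those called in each list, and the 3 protein-coding genes most like each member. A gene that this rule names is not reported here. *Mpv17* had no matching row, and *Dna2*, *Tymp* and 2 genes of the mitochondrial genome were not tested. The members and lists were chosen with earlier results of these data known.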

Additional observations from a re-analysis of the deposited data

How the results depend on the processing

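Of the 5 genes, 1 rose with age. Under limma-voom, a replicate block and log2 of day + 1, 2 did so (*Afg3l2* joined, adjusted p = 0.033, 0.0494 and 0.0409). Over all 14293 genes these fits called 4045, 3634 and 3331 trends in either direction. The members rising were also 2 without P0 or, chosen after seeing the data, without P0 replicate 1 and P4 replicate 3 (*Spg7* joined, edgeR adjusted p = 0.0327 and 0.0205). There the calls over all genes were 2937 of 13854 and 3389 of 14816. Leaving out single libraries gave 1 to 2 risers, 0 to 1 members differing among ages and 1 to 2 members higher at P21 than at P0. DESeq2 and the replicate block also gave 2 for the last (*Polg* joined, adjusted p = 0.0332 and 0.048). For that difference they called 4107 and 3087 of all 14293 genes in either direction. The cause of these changes in calls was not tested. *Coq8a* passed the trend test in all of these fits, with slopes of 0.16 to 0.22 log2 units per day (0.99 per unit of log2 of day + 1).

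The *Twnk* difference of P21 against P0 reversed under limma-voom (1.82), against P4 (0.73) and without P0 replicate 3 (1.91) or P21 replicate 2 (0.072), with a range over single libraries left out of -0.82 to 1.91. The slope of *Phb* reversed on log2 of day + 1 (0.0094) and without P0 passed the threshold at -0.046 (adjusted p = 0.0461), and that of *Tfam* by library totals (-0.0068), without P0 (-0.0016) and without P0 replicate 2 (-0.0025; range over single libraries left out up to 0.027). Without P0, r was -0.218 for *Afg3l2*/*Spg7* and -0.598 for *Afg3l1*/*Afg3l2*. With single libraries left out r ranged from -0.182 to 0.278 for *Afg3l2*/*Spg7*, from -0.739 to -0.612 for *Afg3l1*/*Afg3l2*, from 0.282 to 0.618 for *Coq8a*/*Coq8b* and from -0.328 to 0.0248 for *Polg*/*Twnk*. Replicate numbers did not pair the libraries (mean r of deviations -0.0030 for same numbers, 0.0015 for different ones), so the block values above rest on shared numbers only. With 3 libraries per age and 0 to 3 counts of *Coq8a* or *Twnk* in some, low values of these genes are loosely fixed.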
